A study of Mus musculus with 18 samples.

Results

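The genes described here are 40 genes of the ATF4 stress response and of amino acid metabolism, taken by symbol from a table of 23453 genes. They divide into 12 that act in transcription and feedback, 6 in serine and one-carbon metabolism, 4 in other amino acid metabolism, 6 in amino acid transport and 12 in tRNA charging. All 40 symbols were found in the table. Amino acid shortage, unfolded protein in the endoplasmic reticulum and other stresses activate kinases that phosphorylate the translation factor eIF2. Most translation then slows while that of the transcription factor ATF4 increases, a programme called the integrated stress response. ATF4 induces genes for amino acid synthesis, uptake and tRNA charging, and also genes that shut the response off or lead to cell death.

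RNA-seq counts were measured in B16F10 cells, a mouse melanoma line of the C57BL/6 strain, after lentiviral delivery of an shRNA against Hgs (shHrs) or of a scrambled shRNA (shCTL). Hgs encodes Hrs, which sorts ubiquitinated membrane proteins at endosomes. Culture batch 1 and culture batch 2 each held 2 shHrs and 2 shCTL libraries, and tumours that the cells formed in immunocompetent C57BL/6 females of 6 to 8 weeks gave 5 shHrs and 5 shCTL libraries. Both arms were infected with a pLKO.1 vector and selected with drug, so an untreated line is not among the groups. All groups come from a single established line, and tumour pieces also hold host cells. The labels do not state that cultures sharing a batch were separate, so the p-values for cultures measure the spread between libraries, which may be technical.

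A DNA element bound by ATF4 with C/EBP partners has the core TGATGNAA (N is any base). It was searched on both strands, where the other strand reads TTNCATCA, in the 250 bases before each start in RefSeq promoter windows on GRCm38.p6; no other motif was searched. Of the 40 members, 31 had a window, and the other 9 were Lars, Nars, Slc7a3, Cth, Aldh1l2, Wars, Slc7a5, Mars and Cars. The core was present for 10 of those 31 genes (32.3%), against 3.91% of all 27025 genes with a window. The stretches around the core are printed for the 5 matching genes whose expression is given library by library further on, so that the element can be read beside those values. Capitals mark the core on either strand.
Atf3: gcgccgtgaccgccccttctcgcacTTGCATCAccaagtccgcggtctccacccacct
Chac1: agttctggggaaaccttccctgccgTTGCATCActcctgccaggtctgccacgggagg
Asns: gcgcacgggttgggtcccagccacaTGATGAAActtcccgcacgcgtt
Slc7a11: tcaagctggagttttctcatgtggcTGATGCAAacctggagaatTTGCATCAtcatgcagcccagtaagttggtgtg
Aars: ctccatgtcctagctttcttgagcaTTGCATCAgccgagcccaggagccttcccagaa
These stretches lie at chr1:191183411-191183468 on the minus strand for Atf3, chr2:119351024-119351081 on the plus strand for Chac1, chr6:7693210-7693257 on the minus strand for Asns, chr3:50443628-50443704 on the minus strand for Slc7a11 and chr8:111033705-111033762 on the plus strand for Aars. The core began 110 bases before the start in Atf3, 193 in Chac1, 23 in Asns and 112 in Aars. Slc7a11 held 2 copies that did not overlap, at 66 and 47 bases before the start, on opposite strands. Gars, Nupr1, Pck2, Tars and Vldlr held the other matches. A match describes the letters of the window and shows neither binding nor an effect.

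Total counts were 17612820 to 27705076 per library. Hgs (chromosome 11, 120467635 to 120483984 of GRCm38), the targeted gene, was below every shCTL library in every shHrs library of the same batch or of tumours, with a log2 fold change of -1.67 (SE 0.22, edgeR adjusted p = 0.103) in batch 1, a log2 fold change of -1.30 (SE 0.22, edgeR adjusted p = 0.0268) in batch 2 and a log2 fold change of -2.28 (SE 0.16, edgeR adjusted p = 0.000106) in tumours. Among cultures, shHrs replicate 2 of batch 1 stood apart for these genes: it was the highest of the 8 cultures for 36 of the 40 members, against 19.1% of all genes tested. Among tumours, shHrs replicate 4 was the lowest library for 28.8% of all genes and the highest for 27%, and it held the most leukocyte and muscle marker RNA. The line's own markers were present, as the summed level of 7 melanoma genes was 4209 to 19527 CPM (read counts scaled to a common library size) in cultures. Leukocyte markers summed to at most 4.12 CPM there.

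In culture batch 2 the programme stood lower in shHrs than in shCTL cultures. In batch 1 its median fold change was positive, but the arms overlapped and no member passed the test. Over the 40 members the mean log2 (CPM + 2) in batch 1 was 7.16 and 8.59 in shHrs cultures, against 7.27 and 6.55 in shCTL cultures. In batch 2 it was 6.37 and 6.52 in shHrs cultures, against 7.71 and 7.93 in shCTL cultures. Both batch 2 controls were thus above both batch 1 controls and above every tumour (6.38 to 7.20). The batch 2 shHrs cultures lay just below the lower batch 1 control. Why the controls of the batches differed was not tested. The shHrs libraries of batch 2 were below both shCTL libraries for 38 of 40 members, against 37.1% of all genes. By edgeR's quasi-likelihood test, 9 members fell there and 0 rose: Atf4, Trib3, Chac1, Mthfd2, Gpt2, Slc7a5, Slc7a1, Iars and Cars. Among all genes 4.03% passed in either direction and 2.43% were lower. The median log2 fold change of the 40 members was -1.32, against -0.049 over all 12897 genes, and 39 of 40 values were negative, Slc7a11 being the exception. In batch 1 the shHrs libraries were above both shCTL libraries for 15 of 40 members, against 15.2% of all genes. The median log2 fold change was 0.94, against 0.007 over all genes, and no value was below 0.00, the value of Mars. None of the 40 passed (lowest edgeR adjusted p = 0.292), as for all genes (0% called). At an unadjusted p under 0.05, 18 of 40 members and 1210 of 12897 genes passed, while limma voom called 0 members. DESeq2 called 4 members, each higher (Chac1, Slc3a2, Slc7a1 and Slc38a2), and 1.7% of all genes.

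**Figure D1:**
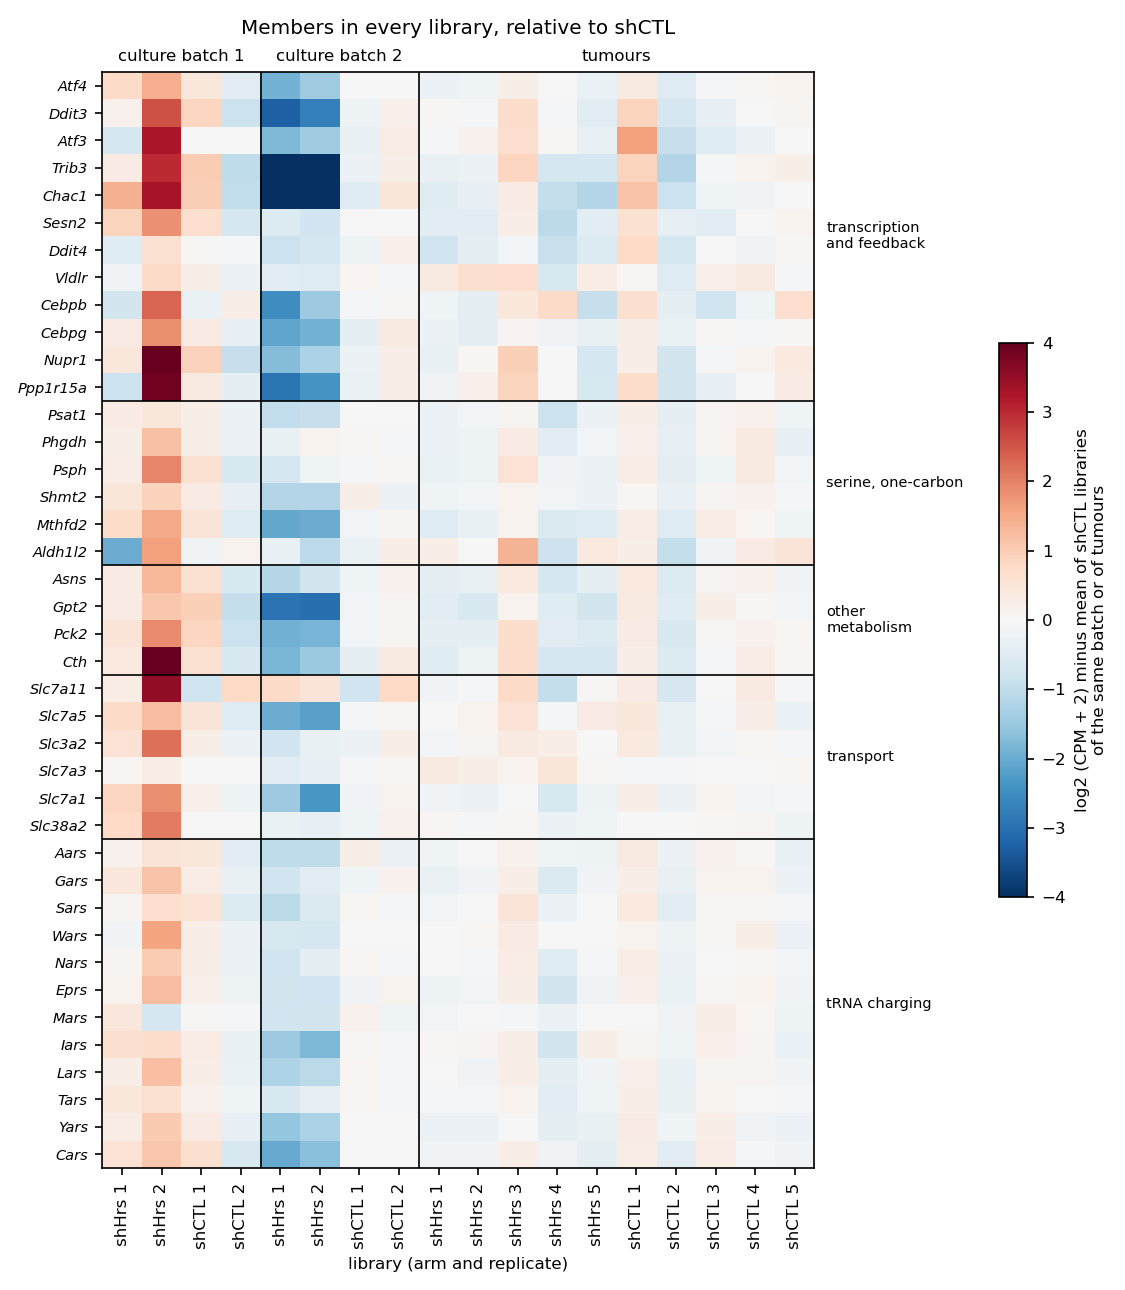
Each cell is the log2 (CPM + 2) of a member (down the page, by role) in a library (across), minus the mean of the shCTL libraries of its own batch or of tumours; red is above and blue below, and the colour scale ends at 4 either way. The second shHrs library of batch 1 is red in 39 of 40 members, both shHrs libraries of batch 2 are blue in at least 38, and tumours are pale.

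Single libraries changed these counts. Without any single library of batch 2, no call of that batch remained, among the members or among all genes. In such fits the lone remaining library is assumed to vary like the other groups. The median stayed between -1.32 and -1.27. Leaving out shHrs replicate 1 or 2 of batch 1 instead gave 23 or 25 members lower in batch 2, the 9 among them, in fits that called 20.4% or 20.7% of all genes. Leaving out either shCTL library of batch 1 ended the call of Slc7a1 alone, with about the share of all genes called in the full fit. The batch 1 median was 1.42 without shHrs replicate 1 of batch 1 and 0.25 without shHrs replicate 2. Without a batch 1 control it was 1.54 (without replicate 1) and 0.57 (without replicate 2). The shHrs libraries of batch 1 lay far apart, with a median absolute log2 gap of 0.99 over the members, against 0.38 over all genes. Replicate 2 was higher for 39 of 40 members, and the median of replicate 2 minus replicate 1 was 0.96, against -0.01 over all genes. Replicate 1 was above both shCTL libraries for 16 members and below both for 5. Replicate 2 was above both for 39 and below both for 1. No share over all genes was computed for these single-library counts. Among the controls of batch 1, replicate 2 was higher than replicate 1 for 4 of 40 members (median difference -0.63). Summed melanoma markers were 5062 and 4209 CPM in shHrs cultures of batch 2, against 13998 and 11474 CPM in shCTL cultures. In batch 1 they were 19527 and 7958 CPM in shHrs cultures, against 15238 and 9613 CPM in shCTL cultures. None of the 7 marker genes passed the test in either batch, and their part in the members' result was not tested. Over both batches together, with batch as a term, 0 of 40 members passed, as did 0% of 12617 genes. There 0 members and 1680 genes had an unadjusted p under 0.05, and DESeq2 and limma voom also called 0 members. The median log2 fold change was -0.25, and it was 0.21 or 0.18 without shHrs replicate 1 or 2 of batch 2.

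Atf4 (chromosome 15, 80255184 to 80257541) encodes the factor that drives the programme, and it was at 595 and 967 CPM in the shHrs cultures of batch 1, against 485 and 254 CPM in shCTL cultures. Both shHrs libraries were above both controls there, with a log2 fold change of 1.08 (SE 0.37, edgeR adjusted p = 0.46). In batch 2 Atf4 was at 157 and 222 CPM in shHrs cultures, against 599 and 589.9 CPM in shCTL cultures, without overlap, and fell by edgeR with a log2 fold change of -1.66 (SE 0.37, edgeR adjusted p = 0.0498). This call was the nearest to the threshold, and edgeR with RLE size factors in place of TMM ended it.

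Ddit3, which encodes the death-promoting factor CHOP, was at 139 and 724 CPM in the shHrs cultures of batch 1, against 223 and 67.2 CPM in shCTL cultures. The second shHrs library was the highest and the first lay between the controls, giving a log2 fold change of 1.58 (SE 0.75, edgeR adjusted p = 0.562), or -0.06 without the second. In batch 2 Ddit3 was at 43.1 and 63.6 CPM in shHrs cultures, against 381 and 502 CPM in shCTL cultures, with a log2 fold change of -3.05 (SE 0.80, edgeR adjusted p = 0.0661). The groups did not overlap there, but the value missed the threshold. Per 100 Atf4 counts, Ddit3 had 27.4 and 28.7 counts in shHrs cultures of batch 2, against 63.5 and 85.1 in shCTL cultures. In batch 1 the same ratio was 23.3 and 74.8 in shHrs cultures, against 46 and 26.4 in shCTL cultures. The groups were apart in batch 2, shHrs being the lower, and overlapped in batch 1. Atf3, a stress-induced relative of ATF4, was at 17.8 and 307 CPM in the shHrs cultures of batch 1, against 29.4 and 30.5 CPM in shCTL cultures. All of that difference lay in shHrs replicate 2, with a log2 fold change of 2.44 (SE 0.98, edgeR adjusted p = 0.517), or -0.75 without it. In batch 2 Atf3 was at 16.7 and 22.3 CPM in shHrs cultures, against 50.0 and 78.1 CPM in shCTL cultures, with a log2 fold change of -1.72 (SE 0.96, edgeR adjusted p = 0.275), where the groups did not overlap.

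Trib3 (chromosome 2, 152337422 to 152344032), a pseudokinase that ATF4 induces and that restrains it in turn, was at 159 and 1016 CPM in the shHrs cultures of batch 1, against 259 and 60.5 CPM in shCTL cultures, with a log2 fold change of 1.88 (SE 0.86, edgeR adjusted p = 0.551). The first shHrs library lay between the controls, and the value was 0.00 without the second. Its batch 2 levels were 16.6 and 25.6 CPM in shHrs cultures, against 517 and 722 CPM in shCTL cultures, without overlap, and fell by edgeR with a log2 fold change of -4.88 (SE 0.98, edgeR adjusted p = 0.0382). Chac1 (chromosome 2, 119351229 to 119354381), whose enzyme degrades glutathione, had the widest spread of all members over the 8 cultures, 154-fold between its highest and lowest library. It was at 116 and 432 CPM in the shHrs cultures of batch 1, against 84.5 and 20.4 CPM in shCTL cultures, where both shHrs libraries were above both controls, with a log2 fold change of 2.39 (SE 0.77, edgeR adjusted p = 0.451). In batch 2 the gene was at 2.97 and 2.81 CPM in shHrs cultures, against 102 and 203 CPM in shCTL cultures, and fell by edgeR with a log2 fold change of -5.72 (SE 0.91, edgeR adjusted p = 0.0243), which is the lowest value of any member. Ppp1r15a, the subunit that directs a phosphatase to eIF2 and so ends the response, was at 24.1 and 681 CPM in the shHrs cultures of batch 1, against 58.1 and 34.5 CPM in shCTL cultures. Its first shHrs library was below both controls and its second above them, giving a log2 fold change of 2.93 (SE 1.14, edgeR adjusted p = 0.513), or -0.94 without the second. Levels in batch 2 were 25.4 and 38.9 CPM in shHrs cultures, against 170.3 and 252 CPM in shCTL cultures, with a log2 fold change of -2.72 (SE 1.13, edgeR adjusted p = 0.162).

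**Figure D2:**
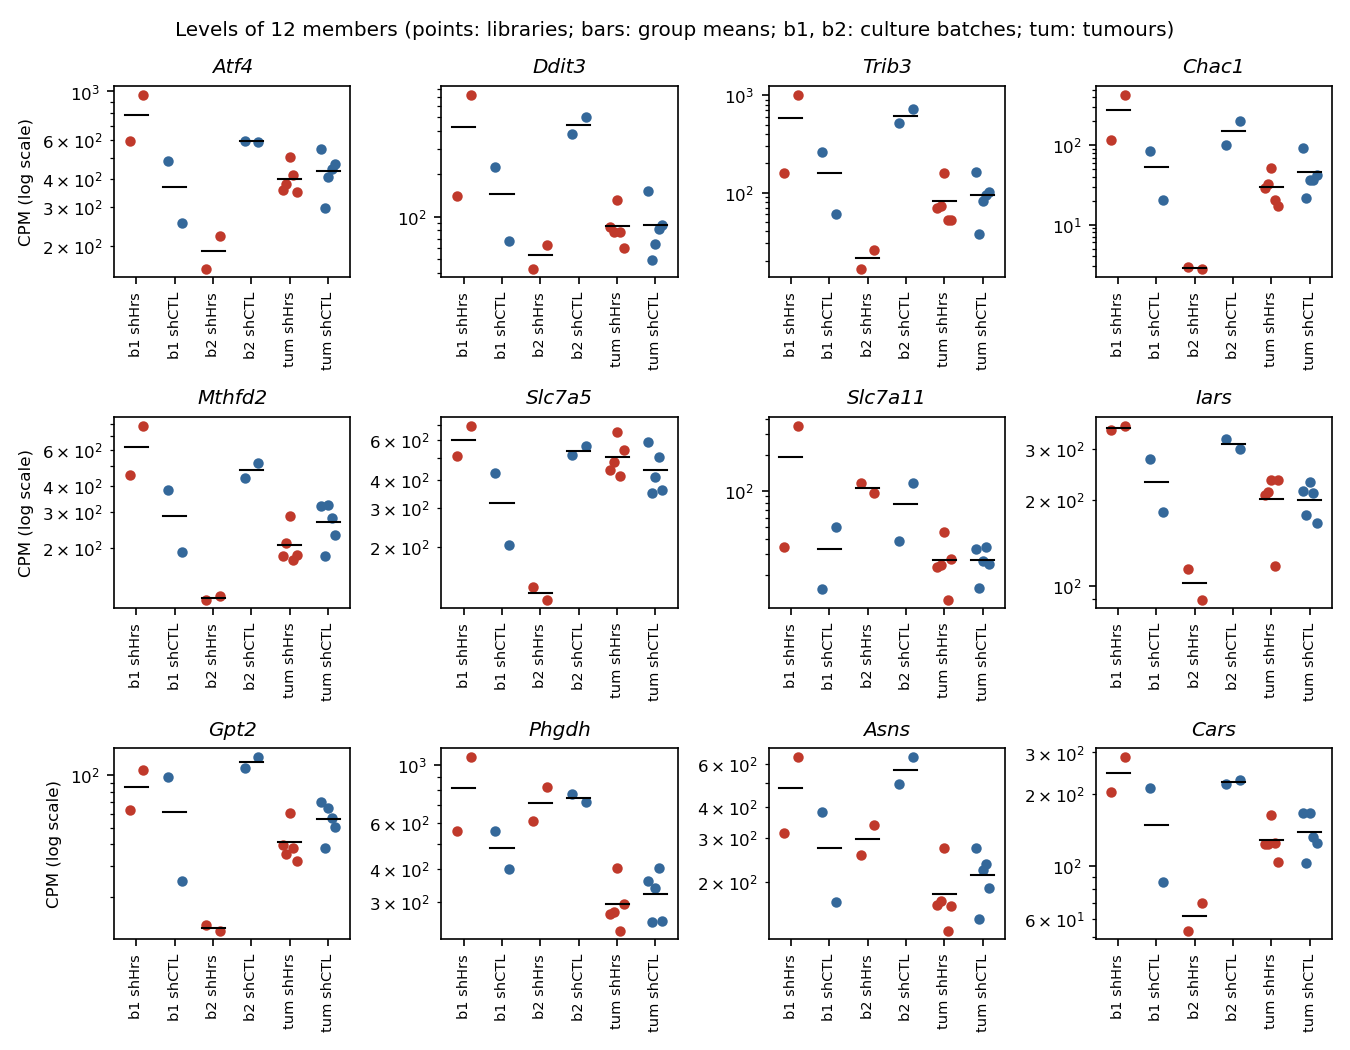
Each point is a library and each bar a group mean for 12 members, as CPM on a log scale with its own range per panel; shHrs (red) stands left of shCTL (blue) within batch 1 (b1), batch 2 (b2) and tumours (tum). Chac1 and Trib3 of batch 2 show the widest gaps, and the tumour groups overlap in every panel.

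Sesn2, a leucine sensor that holds back mTORC1, was at 86.8 and 169.8 CPM in the shHrs cultures of batch 1, against 75.4 and 28.1 CPM in shCTL cultures, without overlap, with a log2 fold change of 1.31 (SE 0.47, edgeR adjusted p = 0.485). In batch 2 it was at 62.3 and 53.9 CPM in shHrs cultures, against 92.0 and 93.3 CPM in shCTL cultures, with a log2 fold change of -0.68 (SE 0.46, edgeR adjusted p = 0.366). Neither value passed, although the groups did not overlap in either batch and pointed in opposite directions. Ddit4, another inhibitor of mTORC1, was at 173 and 365 CPM in the shHrs cultures of batch 1, against 249.6 and 232 CPM in shCTL cultures. The controls lay between the shHrs libraries, with a log2 fold change of 0.17 (SE 0.34, edgeR adjusted p = 0.889), or -0.47 without shHrs replicate 2. In batch 2 Ddit4 was at 108 and 121 CPM in shHrs cultures, against 173 and 226 CPM in shCTL cultures, with a log2 fold change of -0.81 (SE 0.34, edgeR adjusted p = 0.172). The other members of this role were Cebpb and Cebpg, partners of ATF4 on DNA, Nupr1, a stress-induced nuclear protein, and Vldlr, a lipoprotein receptor. Their log2 fold changes in batch 1 ran from 1.19 for Vldlr to 3.29 for Nupr1, all with overlapping groups. In batch 2 they ran from -2.14 for Vldlr to -1.55 for Nupr1, all without overlap, and none passed. Vldlr was close to 0 in the cultures, at 0.112 to 2.21 CPM, so its values there are imprecise. For Nupr1 in batch 1 the first shHrs library lay between the controls and the second above both. By the annotation 20.7% of the exon bases of Cebpb are shared with Tmem189 on the other strand, so its counts may include reads of that gene if strand was not used. Over all 12 members of transcription and feedback, the median log2 fold change was 1.55 in batch 1 and -2.12 in batch 2, with 0 and 3 members past the threshold.

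Serine synthesis starts with Phgdh, and Psat1 and Psph follow it. Phgdh was at 559.8 and 1071 CPM in the shHrs cultures of batch 1, against 559 and 401 CPM in shCTL cultures, with a log2 fold change of 0.77 (SE 0.34, edgeR adjusted p = 0.539), and at 609.7 and 819 CPM in shHrs cultures, against 771 and 719 CPM in shCTL cultures of batch 2, with a log2 fold change of -0.07 (SE 0.34, edgeR adjusted p = 0.912). In batch 2 its groups overlapped, in contrast to 38 other members, and without shHrs replicate 1 the value was 0.12. Psat1 was at 344 and 372 CPM in the shHrs cultures of batch 1, against 322 and 229 CPM in shCTL cultures, with a log2 fold change of 0.38 (SE 0.23, edgeR adjusted p = 0.629). Its batch 2 levels were 169.7 and 176 CPM in shHrs cultures, against 341 and 329.7 CPM in shCTL cultures, with a log2 fold change of -0.96 (SE 0.23, edgeR adjusted p = 0.0573). The groups did not overlap in either batch and the batch 2 value lay just outside the threshold. Psph had log2 fold changes of 1.27 in batch 1 and -0.42 in batch 2, neither passing, and shares 10.4% of its exon bases with Cct6a. Mitochondrial one-carbon metabolism takes the carbon unit of serine through Shmt2, Mthfd2 and Aldh1l2. Mthfd2 (chromosome 6, 83305691 to 83325908) was at 449 and 783 CPM in the shHrs cultures of batch 1, against 382 and 189.9 CPM in shCTL cultures, above both controls, with a log2 fold change of 1.11 (SE 0.38, edgeR adjusted p = 0.464). In batch 2 the gene was at 112 and 117 CPM in shHrs cultures, against 435 and 515 CPM in shCTL cultures, and fell by edgeR with a log2 fold change of -2.06 (SE 0.39, edgeR adjusted p = 0.0337). Shmt2 had a log2 fold change of 0.69 (SE 0.30) in batch 1 and a log2 fold change of -1.20 (SE 0.30, edgeR adjusted p = 0.0633) in batch 2, without overlap in either. Aldh1l2 had log2 fold changes of 0.76 in batch 1 and -0.65 in batch 2, its shHrs libraries being the lowest and the highest of batch 1. It shares 14.1% of its exon bases with D10Wsu102e. Over the 6 genes the median was 0.76 in batch 1 and -0.81 in batch 2, with 0 and 1 past the threshold.

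Asns, which makes asparagine, was at 316 and 641 CPM in the shHrs cultures of batch 1, against 383 and 166 CPM in shCTL cultures, with overlapping groups and a log2 fold change of 0.81 (SE 0.45, edgeR adjusted p = 0.604). Levels in batch 2 were 257 and 339 CPM in shHrs cultures, against 498 and 638 CPM in shCTL cultures, without overlap, and a log2 fold change of -0.94 (SE 0.45, edgeR adjusted p = 0.217) did not pass. Gpt2 (chromosome 8, 85492576 to 85527560), a mitochondrial alanine transaminase, was at 63.3 and 107 CPM in the shHrs cultures of batch 1, against 97.5 and 24.7 CPM in shCTL cultures. These groups overlapped, with a log2 fold change of 0.48 (SE 0.54, edgeR adjusted p = 0.786), or -0.19 without shCTL replicate 2. In batch 2 it was at 13.8 and 12.8 CPM in shHrs cultures, against 110.3 and 128 CPM in shCTL cultures, and fell by edgeR with a log2 fold change of -3.17 (SE 0.59, edgeR adjusted p = 0.0328). Pck2, the mitochondrial enzyme that makes phosphoenolpyruvate, had a log2 fold change of 1.13 (SE 0.58) in batch 1 and a log2 fold change of -1.93 (SE 0.60, edgeR adjusted p = 0.088) in batch 2. Cth, which makes cysteine from cystathionine, had the highest batch 1 value of any member, a log2 fold change of 3.75 (SE 1.15, edgeR adjusted p = 0.426). The first shHrs library lay between the controls there. In batch 2 Cth had a log2 fold change of -1.81 (SE 1.06), without overlap.

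Slc7a11, the cystine and glutamate exchanger, was the only member with a positive value in batch 2. It was at 34.4 and 349 CPM in the shHrs cultures of batch 1, against 15.2 and 50.0 CPM in shCTL cultures, with a log2 fold change of 2.56 (SE 1.02, edgeR adjusted p = 0.515), and at 117 and 96.0 CPM in shHrs cultures, against 38.1 and 117 CPM in shCTL cultures of batch 2, with a log2 fold change of 0.45 (SE 0.96, edgeR adjusted p = 0.785). The groups overlapped in both batches, and the value was 0.09 in batch 1 without shHrs replicate 2 and -0.15 in batch 2 without shCTL replicate 1. Slc7a5 (chromosome 8, 121881150 to 121907694), the light chain of the LAT1 transporter of large neutral amino acids, was at 508 and 696 CPM in the shHrs cultures of batch 1, against 429 and 205 CPM in shCTL cultures, without overlap, with a log2 fold change of 0.93 (SE 0.35, edgeR adjusted p = 0.512). Its batch 2 levels were 134 and 117 CPM in shHrs cultures, against 515 and 564 CPM in shCTL cultures, and fell by edgeR with a log2 fold change of -2.11 (SE 0.36, edgeR adjusted p = 0.0268). Slc3a2, the heavy chain shared by LAT1 and the cystine exchanger, had a log2 fold change of 1.60 (SE 0.49, edgeR adjusted p = 0.415) in batch 1 and a log2 fold change of -0.56 (SE 0.48, edgeR adjusted p = 0.47) in batch 2, where the groups did not overlap but the value did not pass. Slc7a1 (chromosome 5, 148327410 to 148399904), a carrier of cationic amino acids, was at 476 and 937 CPM in the shHrs cultures of batch 1, against 297 and 227 CPM in shCTL cultures, without overlap, with a log2 fold change of 1.44 (SE 0.40, edgeR adjusted p = 0.379). In batch 2 the gene was at 165 and 90.6 CPM in shHrs cultures, against 420.3 and 501 CPM in shCTL cultures, and fell by edgeR with a log2 fold change of -1.85 (SE 0.41, edgeR adjusted p = 0.0476). Slc7a3, a related carrier, was close to 0 at 0.875 and 1.34 CPM in the shHrs cultures of batch 1, against 0.785 and 0.670 CPM in shCTL cultures, with a log2 fold change of 0.61 (SE 0.55, edgeR adjusted p = 0.738). Levels in batch 2 were 0.186 and 0.328 CPM in shHrs cultures, against 0.783 and 1.12 CPM in shCTL cultures, with a log2 fold change of -1.85 (SE 0.60, edgeR adjusted p = 0.0956). Slc38a2, a sodium-coupled carrier of small neutral amino acids, had the lowest p of any member in batch 1, a log2 fold change of 1.60 (SE 0.39, edgeR adjusted p = 0.292), and a log2 fold change of -0.31 (SE 0.38, edgeR adjusted p = 0.623) in batch 2. Over the 6 carriers the median was 1.52 in batch 1 and -1.20 in batch 2, with 0 and 2 past the threshold.

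Aminoacyl-tRNA synthetases load each amino acid onto its tRNA. Iars (chromosome 13, 49682100 to 49734267), for isoleucine, was at 351 and 363 CPM in the shHrs cultures of batch 1, against 279 and 182 CPM in shCTL cultures, without overlap, with a log2 fold change of 0.64 (SE 0.27, edgeR adjusted p = 0.523). In batch 2 it was at 114 and 89.3 CPM in shHrs cultures, against 326 and 302 CPM in shCTL cultures, and fell by edgeR with a log2 fold change of -1.63 (SE 0.27, edgeR adjusted p = 0.0264). Cars (chromosome 7, 143557230 to 143600090), for cysteine, was at 205 and 288 CPM in the shHrs cultures of batch 1, against 213 and 85.3 CPM in shCTL cultures, with overlap and a log2 fold change of 0.73 (SE 0.40, edgeR adjusted p = 0.603). Its batch 2 levels were 53.5 and 69.8 CPM in shHrs cultures, against 220.2 and 229 CPM in shCTL cultures, and fell by edgeR with a log2 fold change of -1.87 (SE 0.41, edgeR adjusted p = 0.0476). These were the 2 synthetases past the threshold, and Yars, for tyrosine, lay just outside it with a log2 fold change of -1.44 (SE 0.33, edgeR adjusted p = 0.0516). Aars, for alanine, was at 615 and 789 CPM in the shHrs cultures of batch 1, against 745 and 409 CPM in shCTL cultures, with a log2 fold change of 0.29 (SE 0.32, edgeR adjusted p = 0.786), or -0.08 without shCTL replicate 2. In batch 2 the gene was at 331 and 335 CPM in shHrs cultures, against 795 and 578 CPM in shCTL cultures, with a log2 fold change of -1.05 (SE 0.33, edgeR adjusted p = 0.0895). The groups overlapped in batch 1 and did not in batch 2. Aars shares 15.1% of its exon bases with other genes, Exosc6 among them. Wars, for tryptophan, was at 225 and 748 CPM in the shHrs cultures of batch 1, against 295 and 209.6 CPM in shCTL cultures, with a log2 fold change of 0.95 (SE 0.48, edgeR adjusted p = 0.582), or -0.16 without shHrs replicate 2. Levels in batch 2 were 305 and 304 CPM in shHrs cultures, against 482 and 480.2 CPM in shCTL cultures, with a log2 fold change of -0.66 (SE 0.48, edgeR adjusted p = 0.391). The remaining synthetases, for glycine, serine, asparagine, glutamate with proline, methionine, leucine and threonine, had log2 fold changes from 0.00 (Mars) to 0.80 (Gars) in batch 1 and from -1.16 (Lars) to -0.47 (Tars) in batch 2. For Mars 68 exon bases were listed as shared with Ddit3 on the other strand, but the positions used for the 2 genes do not overlap, so this is uncertain. In batch 2 the median over the 12 synthetases of the programme was -0.81. The 11 other cytosolic synthetases and scaffold proteins of their complex, listed for comparison, had a median of 0.33 there with 0 past the threshold, and 16 mitochondrial synthetases had -0.02, also with 0. In batch 1 these medians were 0.67, 0.25 and 0.05, with 0 past the threshold in each set. No test of the difference between the sets was made.

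**Figure D3:**
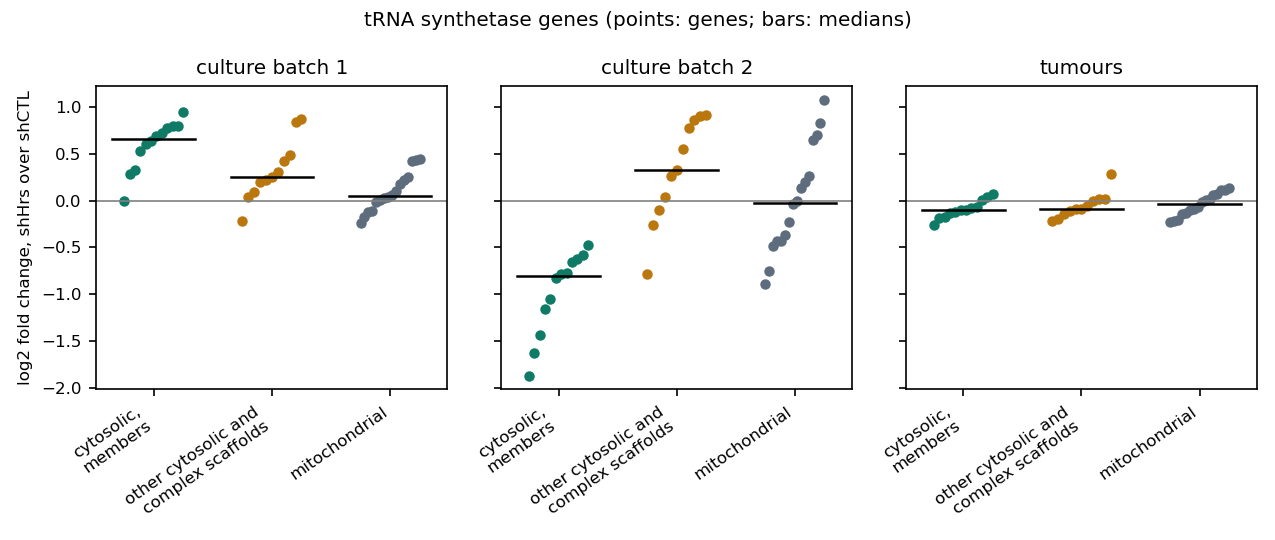
Each point is the log2 fold change, shHrs over shCTL, of a synthetase gene and each bar the median of its set, in batch 1, batch 2 and tumours. In batch 2 all 12 member synthetases lie below 0 (median -0.81), while the other sets straddle 0.

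Whether the knockdown effect differed between the batches was tested as an interaction, batch 2 minus batch 1. All 40 differences were negative, with a median of -2.14, against -0.043 over all genes. None of the 40 passed by edgeR, where 0.155% of all genes did. An unadjusted p under 0.05 was found for 32 of the 40 and for 2618 of 12897 genes, and limma voom called 0 members. DESeq2 called 21 members, each lower, and 7.55% of all genes. Chac1 was nearest to the threshold with a log2 difference of -8.11 (SE 1.18, edgeR adjusted p = 0.0508), and with RLE size factors it passed (adjusted p = 0.0492). Slc7a5 had a log2 difference of -3.04 (SE 0.50, edgeR adjusted p = 0.0639), Iars a log2 difference of -2.27 (SE 0.38, edgeR adjusted p = 0.0639), Mthfd2 a log2 difference of -3.17 (SE 0.54, edgeR adjusted p = 0.0659) and Atf4 a log2 difference of -2.74 (SE 0.52, edgeR adjusted p = 0.0693). For 14 members both shHrs libraries were above both controls in batch 1 and below them in batch 2, against 5.65% of all genes. A positive value in batch 1 with a negative value in batch 2 was found for 38 members, against 26% of all genes. Without shHrs replicate 1 of batch 1, 34 members passed as lower, where 14.8% of all genes passed. Without shHrs replicate 2 of batch 1, 12 did, where 4.81% of genes did, and the median difference was -1.35. Without shCTL replicate 1 of batch 1 some members passed as well. Without any other single culture no gene passed, member or not. The labels give no other difference between the batches, so the batch and whatever came with it cannot be told apart.

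**Figure D4:**
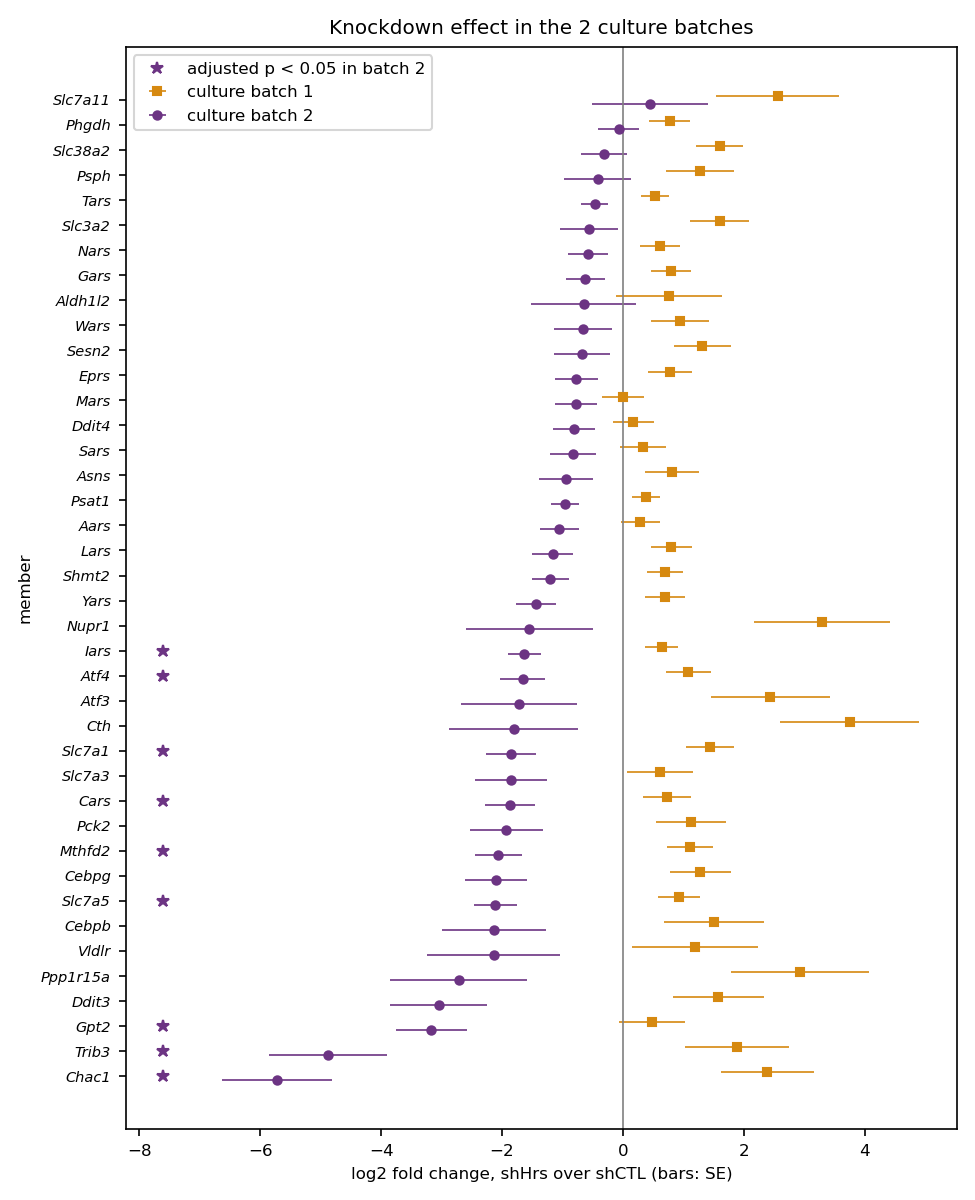
Points are the log2 fold changes, shHrs over shCTL, of the 40 members with bars of 1 SE, in batch 1 (squares) and batch 2 (circles), ordered by the batch 2 value; stars mark the 9 members past an adjusted p of 0.05 in batch 2. The circles lie left of 0 for every member but Slc7a11, and no square lies left of 0.00.

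In tumours the programme did not differ detectably with knockdown. Of the 39 members that passed the filter on low counts, 0 passed the test, where 0.545% of all genes did, and all 39 had overlapping groups, against 4.21% of genes without overlap. An unadjusted p under 0.05 was found for 2 of the 39 members, Ddit4 and Gpt2, and for 1868 of 13215 genes. DESeq2 and limma voom also called 0 members. The median log2 fold change was -0.12, against 0.007 over all genes, and 30 of 39 values were negative. In bulk tissue, fewer cells of a type and less RNA per cell cannot be told apart. Atf4 was at 357, 380.2, 503, 416 and 350.0 CPM in shHrs tumours, against 549.7, 297, 409, 447 and 469 CPM in shCTL tumours, with a log2 fold change of -0.12 (SE 0.16, edgeR adjusted p = 0.789). Ddit3 was at 84.2, 77.6, 132, 77.5 and 60.7 CPM in shHrs tumours, against 151, 49.9, 64.3, 81.5 and 88.0 CPM in shCTL tumours, with a log2 fold change of -0.02 (SE 0.28, edgeR adjusted p = 0.989). In both genes the groups overlapped, and shHrs replicate 3 and shCTL replicate 1 were the highest of their groups. Atf3 was at 24.1, 28.9, 41.3, 26.9 and 20.1 CPM in shHrs tumours, against 84.2, 12.6, 17.8, 21.1 and 25.2 CPM in shCTL tumours, with a log2 fold change of -0.20 (SE 0.45, edgeR adjusted p = 0.888). Its highest value was that of shCTL replicate 1, and without it the log2 fold change was 0.56. Chac1 was at 28.7, 32.2, 52.2, 20.3 and 17.0 CPM in shHrs tumours, against 93.0, 21.8, 36.1, 36.9 and 41.7 CPM in shCTL tumours, with a log2 fold change of -0.61 (SE 0.38, edgeR adjusted p = 0.528). Again shCTL replicate 1 was the highest tumour. Trib3 was at 70.0, 73.6, 157, 52.3 and 52.3 CPM in shHrs tumours, against 162, 37.6, 82.1, 94.8 and 101 CPM in shCTL tumours, with a log2 fold change of -0.24 (SE 0.38, edgeR adjusted p = 0.829), or 0.04 without shCTL replicate 1. Ppp1r15a was at 35.4, 44.6, 74.4, 38.7 and 24.0 CPM in shHrs tumours, against 64.4, 22.9, 30.8, 39.0 and 49.4 CPM in shCTL tumours, with a log2 fold change of 0.07 (SE 0.32, edgeR adjusted p = 0.952), or -0.22 without shHrs replicate 3. The groups overlapped in both. Sesn2 was at 20.7, 19.9, 34.7, 12.6 and 20.5 CPM in shHrs tumours, against 43.7, 22.1, 20.5, 28.9 and 31.1 CPM in shCTL tumours, with a log2 fold change of -0.44 (SE 0.26, edgeR adjusted p = 0.512), and its groups overlapped. Ddit4, the member with the lowest unadjusted p, was at 77.4, 105, 126, 72.5 and 93.3 CPM in shHrs tumours, against 239, 83.0, 139, 123 and 141 CPM in shCTL tumours, with a log2 fold change of -0.62 (SE 0.25, edgeR adjusted p = 0.283). Most of its shHrs tumours lay below most shCTL tumours, with overlap at shCTL replicates 2 and 4.

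The metabolic genes also overlapped between the tumour arms. Psat1 was at 179, 195, 228, 117 and 180.3 CPM in shHrs tumours, against 255, 163, 229, 239 and 187 CPM in shCTL tumours, with a log2 fold change of -0.26 (SE 0.17, edgeR adjusted p = 0.551). Phgdh was at 269, 275, 402, 233 and 295 CPM in shHrs tumours, against 361, 252, 339, 405 and 253 CPM in shCTL tumours, with a log2 fold change of -0.13 (SE 0.17, edgeR adjusted p = 0.785). For both of these serine enzymes shHrs replicate 4 was the lowest tumour. Mthfd2 was at 182, 210.1, 286, 175 and 184 CPM in shHrs tumours, against 319, 182, 322, 278 and 231 CPM in shCTL tumours, with a log2 fold change of -0.36 (SE 0.18, edgeR adjusted p = 0.396). Asns was at 162, 168, 275, 127 and 160.1 CPM in shHrs tumours, against 274, 142, 224, 235 and 188 CPM in shCTL tumours, with a log2 fold change of -0.26 (SE 0.21, edgeR adjusted p = 0.653). Gpt2 was at 39.5, 35.3, 60.8, 38.2 and 32.2 CPM in shHrs tumours, against 70.3, 38.1, 64.9, 56.7 and 50.2 CPM in shCTL tumours, with a log2 fold change of -0.45 (SE 0.20, edgeR adjusted p = 0.332). In all 3 genes shHrs replicate 3 was the highest shHrs tumour. It lay within the range of the controls for Mthfd2 and Gpt2 and level with the highest control for Asns.

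Among the carriers, Slc7a11 was at 23.4, 24.4, 45.9, 12.5 and 27.1 CPM in shHrs tumours, against 32.8, 15.6, 26.3, 34.0 and 24.8 CPM in shCTL tumours, with a log2 fold change of -0.01 (SE 0.30, edgeR adjusted p = 0.995). Slc7a5 was at 442, 478, 652, 415 and 542 CPM in shHrs tumours, against 589, 349, 409.9, 508 and 361 CPM in shCTL tumours, with a log2 fold change of 0.19 (SE 0.17, edgeR adjusted p = 0.68). Slc7a1 was at 292, 277, 319, 206 and 284 CPM in shHrs tumours, against 396, 273, 359, 304 and 308 CPM in shCTL tumours, with a log2 fold change of -0.26 (SE 0.13, edgeR adjusted p = 0.409). All 3 overlapped between the groups. Slc7a3 was below the filter in tumours, with 26, 14, 11, 23 and 9 counts in shHrs tumours, against 4, 4, 6, 6 and 8 counts in shCTL tumours. Each shHrs tumour was above every control in counts, and 1 of them, replicate 5, was below shCTL replicate 5 once scaled to CPM. In a fit of the tumours without the filter its log2 fold change was 1.28 (SE 0.43), which did not pass over all genes (edgeR adjusted p = 0.26). Among the synthetases, Aars was at 437, 485, 559.8, 439 and 435 CPM in shHrs tumours, against 640.2, 416, 553, 509 and 398 CPM in shCTL tumours, with a log2 fold change of -0.10 (SE 0.13, edgeR adjusted p = 0.796). Wars was at 175, 188, 219.8, 173 and 178 CPM in shHrs tumours, against 193, 155, 182, 207 and 150.1 CPM in shCTL tumours, with a log2 fold change of 0.07 (SE 0.11, edgeR adjusted p = 0.818). Groups overlapped for both, and both values were within 1 SE of 0. Iars was at 207, 213, 235, 117 and 235 CPM in shHrs tumours, against 214, 177, 230.0, 212 and 165 CPM in shCTL tumours, with a log2 fold change of 0.01 (SE 0.17, edgeR adjusted p = 0.991), its lowest value being that of shHrs replicate 4. Cars was at 123, 124, 164, 125 and 104 CPM in shHrs tumours, against 168, 102, 167, 133 and 125 CPM in shCTL tumours, with a log2 fold change of -0.12 (SE 0.15, edgeR adjusted p = 0.779). The medians over the 12 member, 11 other cytosolic and 16 mitochondrial synthetases were -0.10, -0.09 and -0.04. The log2 fold changes of the 39 members ran from -0.62 for Ddit4 to 0.35 for Vldlr.

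The extremes in tumours came from single libraries of both arms. The highest library was shCTL replicate 1 for 17 members and shHrs replicate 3 for 16, and the lowest was shHrs replicate 4 for 19 and shCTL replicate 2 for 14. Over all genes, shCTL replicate 1 was the highest for 11.8% and shHrs replicate 3 for 6.84%. The lowest was shHrs replicate 4 for 28.8% of all genes and shCTL replicate 2 for 6.47%. Over the 40 members the mean log2 (CPM + 2) was 6.65, 6.71, 7.20, 6.46 and 6.56 in shHrs tumours, against 7.20, 6.38, 6.82, 6.91 and 6.79 in shCTL tumours. The highest tumour of each arm had the same mean, 7.20, and the lowest had 6.46 in shHrs and 6.38 in shCTL tumours. Leukocyte markers (5 genes) summed to 62.5, 58.9, 41.4, 216 and 37.8 CPM in shHrs tumours, against 24.4, 81.9, 9.68, 56.6 and 105 CPM in shCTL tumours. The sum was highest in shHrs replicate 4, which was also the lowest tumour of its arm for the programme. Fibroblast markers (6 genes) summed to 607, 416, 305, 1404 and 187 CPM in shHrs tumours, against 199.5, 1438, 235, 227 and 2336 CPM in shCTL tumours. Macrophage markers (6 genes) summed to 297, 271, 187, 803 and 181 CPM in shHrs tumours, against 83.6, 333, 34.2, 227 and 482 CPM in shCTL tumours. Muscle markers (5 genes) summed to 15.8 to 651 CPM in shHrs tumours (median 194), against 5.02 to 157 CPM in shCTL tumours (median 17.7). Erythroid markers (2 genes) summed to 1.47, 5.62, 5.80, 3.14 and 2.51 CPM in shHrs tumours, against 71.3, 61.3, 22.4, 2.65 and 34.1 CPM in shCTL tumours. The arms overlapped in each of these sums. The log2 fold change was positive for 5 of 5 muscle (median 2.1), 5 of 5 leukocyte (median 0.86) and 6 of 6 macrophage genes (median 0.53). It was also positive for the 3 tested genes of T and NK cells (median 0.98). Fibroblast genes were positive for 3 of 6 (median -0.06) and endothelial genes for 3 of 5 (median 0.01). The 1 erythroid gene tested had -3.39, and no marker passed the test. The part of these cells in the members' levels was not tested. Without shHrs replicate 4, 0 members passed and their median was -0.08. Over all single tumours left out it ran from -0.25 (without shHrs replicate 3) to -0.03 (without shCTL replicate 1). Between the highest and lowest tumour a member varied 1.95-fold in the median, against 1.67-fold over all genes. In the 8 cultures it varied 5.99-fold, against 2.35-fold over all genes.

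**Figure D5:**
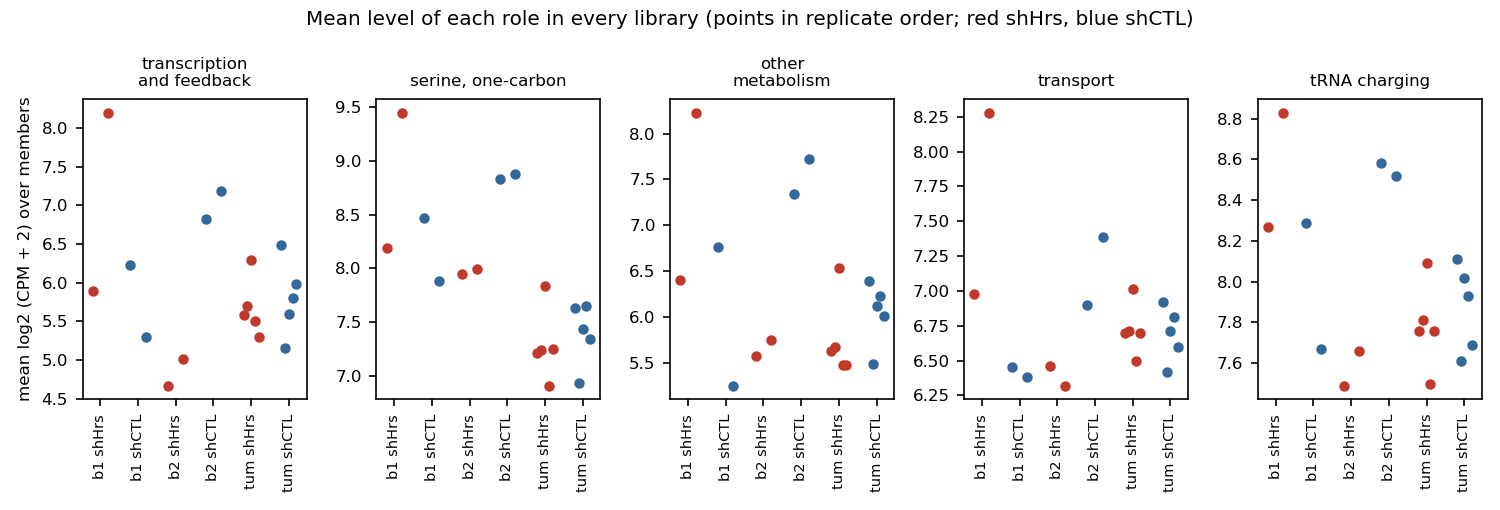
Each point is the mean log2 (CPM + 2) over the members of a role in a library, with shHrs in red left of shCTL in blue, for batch 1 (b1), batch 2 (b2) and tumours (tum). In every role the batch 2 shHrs libraries lie below their controls, the second shHrs library of batch 1 is the highest, and the tumour arms overlap. The first shHrs library of batch 1 lies between its controls in every role but transport, where it is above both.

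The knockdown effect in tumours minus the mean effect in the culture batches had a median of 0.08 over the 40 members, and 0 passed by edgeR, where 3.61% of all genes did. An unadjusted p under 0.05 was found for 3 of the 40 members (Slc7a3, Slc38a2 and Slc7a5) and for 3030 of 14458 genes. DESeq2 and limma voom called 0 members. The lowest adjusted p was that of Slc7a3, with a log2 difference of 1.87 (SE 0.59, edgeR adjusted p = 0.0822). Set against each batch alone, the tumour effect gave opposite medians: 1.09 against batch 2, with 15 members past the threshold as higher and 15.2% of all genes called, and -0.97 against batch 1, with 2 members past it as lower (Slc7a1 and Slc38a2) and 1.07% of genes called. Without single batch 1 libraries, members passed that otherwise did not: 4 without shHrs replicate 1, 1 without shHrs replicate 2 and 2 without shCTL replicate 2, in fits that called 14.6%, 3.83% and 8.53% of all genes.

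The medians of members with and without the TGATGNAA core lay close together. In batch 1 they were 1.16 for the 10 with and 1.11 for the 21 without, in batch 2 -1.30 and -1.44, and in tumours -0.15 and -0.13. Chac1 and Slc7a11, whose stretches are printed above, had the lowest and the highest batch 2 values among the members.

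Levels of different genes were compared per kilobase of exon, taking the exons of all annotated transcripts of a gene together. The order of genes therefore depends on the annotation. In shCTL tumours Gars was the highest at 218 CPM per kilobase, followed by Atf4 at 184, Phgdh at 129.6 and Slc7a5 at 119.6, while Slc7a3 was the lowest at 0.0812. In shHrs tumours the same genes were at 194, 170.2, 119, 136 and 0.199 CPM per kilobase. In batch 2, Phgdh led in the shHrs cultures at 287 CPM per kilobase, against 299.8 in shCTL cultures. Trib3 was at 9.93 CPM per kilobase in shHrs cultures, against 291 in shCTL cultures. Trib3 was thus at about the level of Phgdh in the shCTL cultures and far below it in the shHrs cultures.

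Genes around the programme that are not members were counted in batch 2. Of 12 genes of the eIF2 kinases, eIF2B and the phosphatase, 2 rose and 0 fell, against 1.6% of all genes higher and 2.43% lower. They were Eif2b4, an eIF2B subunit, with a log2 fold change of 1.21 (SE 0.25, edgeR adjusted p = 0.0394), and Eif2ak2, the kinase PKR that double-stranded RNA activates, at 92.9 and 69.1 CPM in shHrs cultures, against 40.7 and 34.4 CPM in shCTL cultures, with a log2 fold change of 1.11 (SE 0.24, edgeR adjusted p = 0.0455). The haem-regulated kinase Eif2ak1 had a log2 fold change of 0.63 (SE 0.20, edgeR adjusted p = 0.0958), the endoplasmic reticulum kinase Eif2ak3 a log2 fold change of -0.56 (SE 0.22, edgeR adjusted p = 0.137) and the amino acid sensor Eif2ak4 a log2 fold change of -0.31 (SE 0.26, edgeR adjusted p = 0.465). None of these 3 passed. In batch 1 the log2 fold changes of the 4 kinases ran from -0.19 to 0.11, and in tumours from -0.09 to 0.47, again with 0 past the threshold. Of 19 tested further genes listed as targets of ATF4, 4 fell and 0 rose in batch 2. Jdp2, a bZIP repressor, was at 12.3 and 13.1 CPM in shHrs cultures, against 51.5 and 68.4 CPM in shCTL cultures, with a log2 fold change of -2.24 (SE 0.28, edgeR adjusted p = 0.0225). Aldh18a1, of proline synthesis, was at 34.9 and 28.5 CPM in shHrs cultures, against 322 and 375 CPM in shCTL cultures, with a log2 fold change of -3.46 (SE 0.55, edgeR adjusted p = 0.0243). Herpud1, of endoplasmic reticulum degradation, had a log2 fold change of -2.95 (SE 0.52, edgeR adjusted p = 0.0282), and the fourth was Gtpbp2. Jdp2 also differed between the batches, with a log2 difference of -3.05 (SE 0.38, edgeR adjusted p = 0.0374) for batch 2 minus batch 1. Of 13 tested further amino acid carriers, 1 fell: Slc1a4, a carrier of small neutral amino acids, had a log2 fold change of -3.01 (SE 0.62, edgeR adjusted p = 0.0399), without overlap of the groups. Of 13 genes of folate and glycine metabolism and of 15 genes of the other arms of the unfolded protein response, 0 passed, with medians of -0.09 and 0.62. In batch 1 and in tumours no gene of these lists passed. The tumour effect minus the mean culture effect passed for 2 genes of the lists, with a log2 difference of -0.65 (SE 0.15, edgeR adjusted p = 0.0285) for Eif2b4 and a log2 difference of -2.48 (SE 0.66, edgeR adjusted p = 0.048) for Cbs, which makes cystathionine. Cbs was low, with 674 counts over the 18 libraries and 0.558 to 4.22 CPM in the cultures of batch 1.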

How the data were processed

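RNA-seq of 18 libraries was deposited as a table of read counts per gene, and the values are not normalised. The submitters' processing notes name STAR 2.4.0h2, DESeq and the mm10 build, and the sources used here do not give the counting tool, the annotation or the use of strand. Libraries were grouped by their titles.

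Counts were tested in R 4.3.3 with edgeR 4.0.16 (quasi-likelihood F test, TMM scaling, low-count filter with a minimum of 10, Benjamini-Hochberg adjustment over all genes tested, threshold 0.05). The culture batches and their difference came from 1 fit of 8 libraries with a mean per group, and "both batches" from a fit with batch as a term. Tumours were fitted alone, and tumours against cultures over 18 libraries. The filter of the fit of both batches was set to its own design after the result with the other filter had been seen. Alternatives were RLE size factors, no filter, limma voom (limma 3.58.1), DESeq2 1.42.0, a replicate block, each batch alone and leaving out each library. The programs were checked on simulated counts.

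CPM values use TMM scaling over 18 libraries, and log2 values add 2 CPM. A fold change is shHrs over shCTL on the log2 scale, with SE from the F statistic. Gene positions and exon lengths are from GENCODE mouse release 21 on GRCm38, and promoter sequences are from RefSeq on GRCm38.p6. Values are given by library for a set of 17 members and for any other member past the threshold; of other lists, at most 3 genes past it are named with values, and the eIF2 kinases in any case. The members and lists were chosen with earlier results of these data known.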

Additional observations from a re-analysis of the deposited data

Results flagged for a closer look

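A single tumour stood far from the others of its arm for 11 of the 82 gene and arm groups checked. Chance gives about 1 in 20 where values are normally distributed, which was not tested for the unlogged CPM used. The excess over that rate is therefore not a measure of chance, and 10 of the 11 were the highest of their group. Replicate 3 of the shHrs tumours was far above the other 4 for 8 members: Asns at 275 CPM, Cth at 26.9 CPM, Gpt2 at 60.8 CPM, Pck2 at 143 CPM, Psph at 68.4 CPM, Sars at 617 CPM, Shmt2 at 309.7 CPM and Trib3 at 157 CPM. Its gap was widest for Pck2, where the other shHrs tumours were at 59.2 to 67.2 CPM. Replicate 4 of the shHrs tumours was far below the others for Iars, at 117 CPM against 207 to 235 CPM. Replicate 1 of the shCTL tumours was far above the other controls for Atf3, at 84.2 CPM against 12.6 to 25.2 CPM, and for Chac1, at 93.0 CPM against 21.8 to 41.7 CPM. The members share libraries, so these are not independent of each other.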

How the results depend on the processing

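With both batches together, 0 members passed in every alternative run, also with the filter by batch and arm (4 of 12897 genes), which was used before the reported filter was chosen with its result in view and was listed as an alternative after seeing the data; without single libraries the median ran from -0.67 to 0.21. In tumours 0 passed in every alternative (median -0.25 to -0.03 without single libraries). In batch 1, 17 members passed with no filter (2.49% of all genes), 4 with DESeq2 (1.7%) and 0 to 22 without single libraries (median 0.25 to 1.54). In batch 2, 22 passed with no filter (12.6% of all genes), 17 with DESeq2 (15.4%), 31 with the batch alone (34.1%), 10 with limma voom (5%), 8 with RLE (4.1%) and 0 to 25 without single libraries (median -1.32 to -1.27). For the batch difference, 1 passed with RLE (0.225% of all genes), 30 with no filter (7.45%), 21 with DESeq2 (7.55%) and 0 to 34 without single libraries (median -2.56 to -1.35). For tumours minus cultures, 2 passed against batch 1 (1.07% of all genes, median -0.97), 15 against batch 2 (15.2%, median 1.09) and 0 to 4 without single libraries (median -0.21 to 0.35). The cause of these shifts was not tested.

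Same-numbered libraries deviated with a correlation of 0.173 in batch 1, 0.0235 in batch 2 and -0.599 to 0.466 in tumours. With 2 libraries per culture arm, such a correlation cannot decide whether the numbers pair the cultures. The reported tests left all libraries unpaired. Taken by number in batch 1, the members' mean log2 (CPM + 2) was 7.16 in shHrs against 7.27 in shCTL for replicate 1. For replicate 2 it was 8.59 against 6.55. A replicate block gave 4 members in batch 2 (3.6% of all genes) and 0 in each other comparison, with a median of -0.34 for both batches.

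For the 21 genes described by library, 977 of 1181 alternative values kept direction and side of the threshold, 120 gained a call, 44 lost it and 40 changed sign. In tumours Ddit3 was 0.04 (limma voom) and 0.03 (block), Atf3 0.08 and 0.14, Iars -0.03 and -0.02, and Slc7a11 0.00 with no filter or with all 18 libraries. Without single libraries, batch 1 ranges were -0.06 to 2.68 (Ddit3), -0.75 to 3.36 (Atf3), -0.47 to 0.60 (Ddit4), -0.94 to 3.88 (Ppp1r15a), -0.16 to 1.57 (Wars), -0.19 to 1.79 (Gpt2) and -0.08 to 0.78 (Aars). In batch 2 they were -0.24 to 0.12 (Phgdh) and -0.15 to 1.48 (Slc7a11), whose batch difference was -3.22 to 0.36. In tumours they were -0.23 to 0.29 (Ddit3), -0.40 to 0.56 (Atf3), -0.63 to 0.04 (Trib3), -0.22 to 0.29 (Ppp1r15a), -0.30 to 0.17 (Slc7a11), -0.17 to 0.01 (Aars), -0.06 to 0.15 (Iars) and 0.00 to 0.14 (Wars). With 2 libraries per culture group, intervals are wide, and counts of Slc7a3 (4 to 28 per library) limit its precision.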
